A study of Drosophila melanogaster with 6 samples.

Results

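Kc cells are a female Drosophila melanogaster line derived from late-stage embryos with the genotype se/e. In these cells 895 windows of 10 kb had nearly the same label, scaled to library size, in early, middle and late S phase. These windows are called evenly labelled here. They were picked on the chromosome arms X, 2L, 3L and 3R from a grid of windows that do not overlap. In the authors' combined value of each fraction, the highest of the 3 fractions was at most 1.4 times the lowest, Mid S was below 1.25 times the higher of Early S and Late S, and the 3 values summed to at least 9 RPKM. RPKM is the number of reads scaled to the length of the window and to the size of the library. Of 9332 windows of that grid with the same minimum sum, called covered windows here, 9.59% were evenly labelled. The whole data set holds 55900 overlapping windows.

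There were 6 libraries in 3 groups, all from wild-type Kc cells grown for 1 hour with 50 µg/ml BrdU, a base analogue that is built into DNA as it replicates. Fixed cells were stained for DNA content and sorted into Early S, Mid S and Late S fractions, and BrdU-labelled DNA was recovered with an antibody and sequenced, with 2 libraries per fraction. Nothing in the labels says that the 2 libraries of a fraction came from separate cultures, so errors and p-values measure the spread between libraries, which may be technical. The libraries held 1384200 to 2936097 reads. In evenly labelled windows the median was 113 to 252 reads per library.

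Eukaryotic chromosomes replicate in a set order during S phase. Long domains that fire many origins together replicate early, gene-poor or silent domains replicate late, and the stretches between them are crossed by forks that leave the early domain. A fraction sorted by DNA content averages over many cells. A window with the same label in all fractions may therefore lie midway along such a crossing, or within a stretch that has no preferred time over a longer distance. The values on both sides of each window share no reads with it and were not used to pick it. They are used here to tell these descriptions apart. A side can itself hold other evenly labelled windows, picked by the same rule, which draws its mean towards level.

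The evenly labelled windows lay at about the middle of the range of all covered windows. The median of the 895 windows was 8.31 and 8.14 RPKM for the Early S libraries, 8.99 and 8.98 RPKM for the Mid S libraries, and 8.13 and 8.16 RPKM for the Late S libraries. From the 5th to the 95th percentile the windows ran from 4.80 to 12.2 RPKM in Early S replicate 1 and from 4.85 to 12.1 RPKM in Late S replicate 1. Over all covered windows the same percentiles were 1.70 and 18.5 RPKM in Early S replicate 1, and 2.26 and 17.1 RPKM in Late S replicate 1. In Mid S the ranges of both sets had like upper ends but different lower ends, with 5.56 to 13.2 RPKM in evenly labelled windows and 3.93 to 13.3 RPKM in all covered windows of replicate 1. These levels describe the choice of windows and carry no test.

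**Figure D1:**
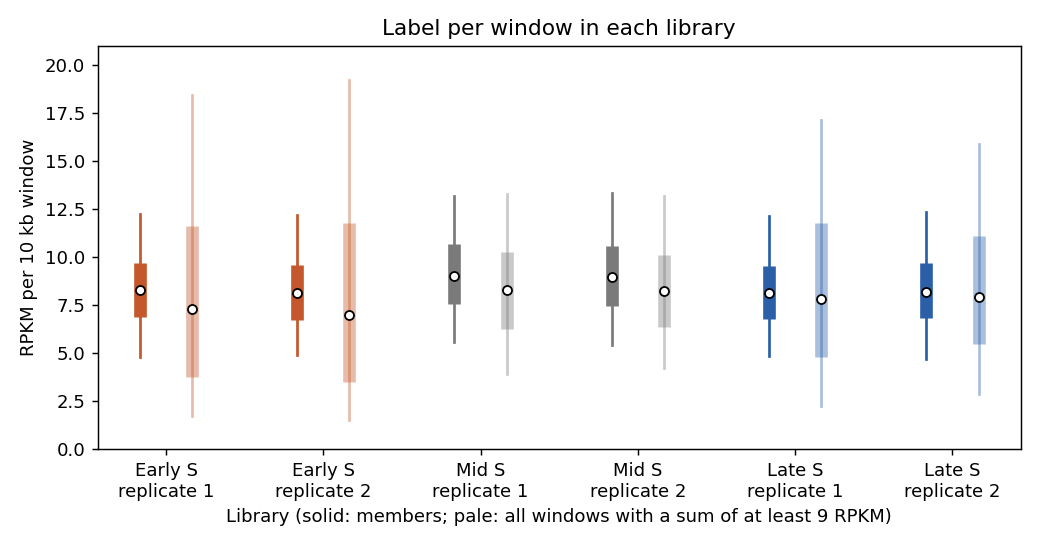
RPKM per 10 kb window in each of the 6 libraries. Points are medians, thick bars the 25th to 75th percentile and thin bars the 5th to 95th percentile, for the 895 evenly labelled windows (members, solid) and for the 9332 covered windows (pale). The medians of the evenly labelled windows lie between 8.13 and 8.99 RPKM in all libraries.

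Mid S tended to be slightly the highest fraction within the allowed range. It was the highest in 511 of the 895 windows, Late S in 195 and Early S in 189. Mid S also had the highest median over all covered windows, so a higher Mid S level is not particular to this set. There it stood at 8.25 RPKM, against 7.13 for Early S and 7.88 for Late S (mean of library medians). The median ratio of Mid S to the mean of Early S and Late S was 1.12, with 0.881 and 1.27 at the 5th and 95th percentile. The highest fraction exceeded the lowest 1.27-fold at the median, against 2.52-fold over all covered windows. Counting error alone, at the median of 398 Early S and 266 Late S reads, gives an Early S to Late S ratio a 95% interval of 1.17-fold in either direction.

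The limit of 1.4 cuts through a continuous range. Just inside it, 2L at 13470001 to 13480000 had 8.24 and 7.03 RPKM (Early S), 11.3 and 10.3 (Mid S) and 8.35 and 10.3 (Late S), a ratio of 1.3999. Also inside lay 3R at 3930001 to 3940000 (1.3995) and 3R at 20940001 to 20950000 (1.3994). Just outside, 3L at 3010001 to 3020000 had 8.04 and 6.87 RPKM (Early S), 10.5 and 10.9 (Mid S) and 10.4 and 9.75 (Late S), a ratio of 1.4013. It was followed by 2L at 9090001 to 9100000 (also 1.4013) and 3L at 23520001 to 23530000 (1.4019). A further 350 windows that met the other conditions had ratios between 1.4 and 1.5.

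The 2 replicate numbers did not always name the same windows. Of the 895 windows, 659 met the rule in the replicate 1 libraries alone, 651 in the replicate 2 libraries alone, 445 in both and 30 in neither. Picked afresh from 1 replicate number, 829 windows met the rule in replicate 1 and 1037 in replicate 2. Of these, 446 were shared, which is 53.8% of the first list and 43.0% of the second. Of all grid windows that summed to at least 9 RPKM in replicate 2, 11.1% met the rule there. The replicates differed by more than counting error in evenly labelled windows, where counting error alone would give a chi-square of about 1 for each degree of freedom. It was 1.95 for Early S, 2.29 for Mid S and 2.33 for Late S, and 2.24, 2.45 and 3.27 in the other covered windows.

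The fractions were also compared by limma, fitted to log2 values of all 53434 windows with reads, with Benjamini-Hochberg adjustment. Of the 895 windows, 79 had more label in Early S than Late S (adjusted p under 0.05, limma), a call made in 37.6% of all tested windows. In 62 windows Late S was higher, a call made in 44.2%. Against Mid S, 15 windows were higher in Early S (20.5% of all windows) and 8 were higher in Late S (26.9%). Mid S was called higher than Early S in 78 windows (43.5%) and higher than Late S in 76 (38.7%). No contrast was called in 630 windows, 70.4%, against 11.2% of all windows and 7.4% of covered windows. The rule used these contrasts, so the counts only describe the chosen windows.

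Evenly labelled windows occurred on all 4 arms in similar shares. They made up 10.6% of covered windows on 3R (292), 9.55% on 3L (222), 9.02% on 2L (197) and 8.85% on X (184). In the 2 Mb next to the telomeres the share was 10.8%, in the 2 Mb next to the centromeres 8.66%, and between them 9.55%. At a finer scale the windows were unevenly spread. Among 97 segments of 1 Mb the count ran from 0 to 23 with a median of 8. The highest was 3R at 22000001 to 23000000, with 23 of 98 covered windows, and the segment with none was 2L at 8000001 to 9000000. These segments were singled out after their counts were seen.

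The 2 sides of a window were described by the mean Early S minus Late S difference, on the log2 scale, over the 5 windows 10 to 50 kb to the left and the 5 to the right. Both sides could be measured for 886 of the 895 windows. A side is called early at 0.5 or more, late at -0.5 or less, and level in between. A passing point has 1 early and 1 late side, and a flat stretch is level on both sides. Neighbouring windows share flanks and are not independent of each other.

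Evenly labelled windows were a mixture of several kinds of surroundings, with passing points more numerous than flat stretches at the main setting. Passing points numbered 243 of 886, or 27.4%, against 10.4% of covered windows. Flat stretches numbered 129, or 14.6%, against 4.98% of covered windows. Sides are classed by their mean alone, so a level side need not be constant along its length. Many windows had a level side opposite a late or an early side. For 274 (30.9%, against 15.1%) the other side was late, and for 123 (13.9%, against 13.8%) it was early. A further 94 windows (10.6%, against 30%) had late DNA on both sides, and 23 (2.60%, against 25.6%) had early DNA on both sides. With libraries centred on their medians, 6.88% had late DNA on both sides (27.16% of covered windows) and 3.84% early DNA (27.99%). After quantile normalization these shares were 5.64% (26.46%) and 3.05% (26.25%). Late DNA on both sides thus stayed more frequent than early DNA on both sides, but by less than without such scaling. Nearby windows are alike in timing, so a choice of windows from the middle of the timing range itself fixes part of these shares.

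**Figure D2:**
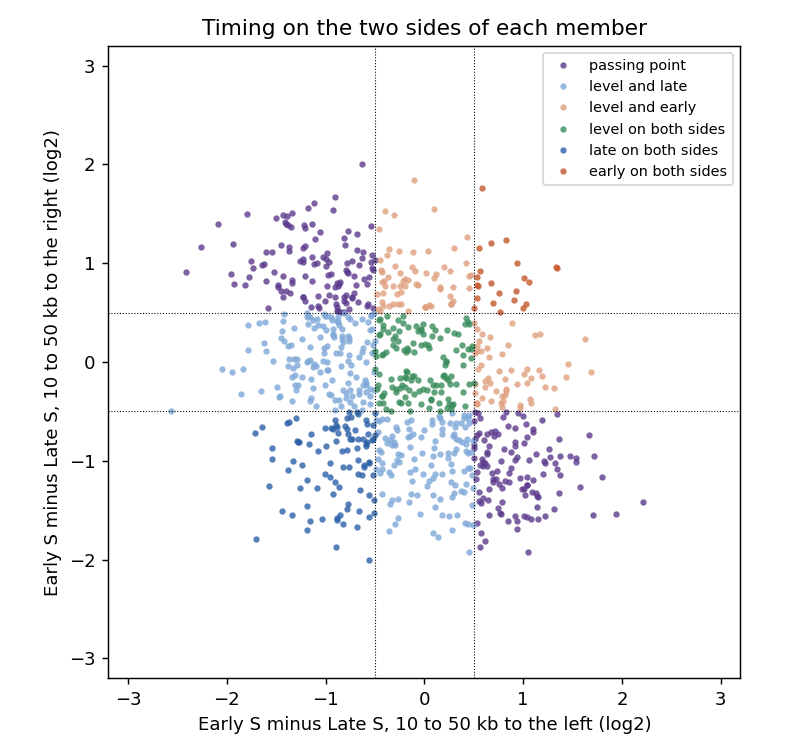
Mean Early S minus Late S difference (log2) 10 to 50 kb to the left (horizontal axis) and to the right (vertical axis) of each of 886 evenly labelled windows. Dotted lines mark -0.5 and 0.5. The 243 passing points fill the upper left and lower right corners, the 129 flat stretches the central square, and the upper right corner holds 23 windows against 94 in the lower left.

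These shares depend on where early and late begin. With sides called from 1 in place of 0.5, passing points fell to 7.11% (2.75% of covered windows) and flat stretches rose to 55.3% (19.5%). With sides called by sign alone, 61.6% of evenly labelled windows had sides of opposite sign, against 25.6% of covered windows. Both sides lay below 0 in 28.3% (39.7% of covered windows) and above 0 in 10.0% (34.6%). With quantile normalization flat stretches made up 23.0% (7.64% of covered windows) and passing points 21.6% (8.58%), so their order turned. With sides of 10 to 30 kb flat stretches made up 21.9% (5.38%) and passing points 21.6% (5.93%), so that they were about as many.

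A test of the difference between the sides was run with limma over 9579 windows of the grid. It was called (adjusted p under 0.05, limma) for 749 of 886 evenly labelled windows, 84.5%, close to the 80.5% of covered windows. The share of called sides is therefore no result about these windows. All 243 passing points were called, and so were 69 of the 129 flat stretches. The median absolute difference between sides was 0.32 on the log2 scale in flat stretches against 2.01 for passing points. The class rule itself keeps the sides of a passing point far apart and those of a flat stretch close. The calls of passing points follow from that rule and are no result of the test. Called shares within each class are not given for covered windows, so both counts only describe the classes. The median half-width of the 95% interval of a side difference was 0.28. For the 137 windows that were not called, a difference was not detectable with these libraries, which does not show that the sides were equal.

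Sizes of the side difference covered a wide range. The median absolute difference was 1.02 on the log2 scale in evenly labelled windows and 0.86 in covered windows, with 2.57 and 2.52 at the 95th percentile. The slope of Early S minus Late S across the window and 2 neighbours on each side had a median size of 0.23 per 10 kb, against 0.19 in covered windows. Within the set it was 0.43 at passing points and 0.088 in flat stretches. With early DNA on both sides it was 0.058 and with late DNA on both sides 0.11. A level side opposite an early or a late side gave 0.21 and 0.24. The neighbours belong to the sides that define these classes, so the definition fixes much of this contrast.

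Around passing points Early S fell and Late S rose over about 100 kb while Mid S stayed nearly level. With the earlier side first, Early S went from 12.3 ± 0.143 RPKM at 50 kb on the early side through 8.22 ± 0.0232 at the window to 3.52 ± 0.229 at 50 kb on the late side (mean and SD of library medians, n = 2). Late S went from 5.48 ± 0.520 through 7.89 ± 0.186 to 11.3 ± 0.614 RPKM at the same places. Mid S, which took no part in naming the sides, had 9.05 ± 0.170, 9.06 ± 0.0382 and 8.05 ± 0.220 RPKM. That Early S and Late S meet at the window, and that they part in opposite directions within 50 kb, is set by the choice of windows and classes. In each fraction both libraries followed the same course. At 100 kb on the early side Early S was back at 9.90 ± 0.302 RPKM, a distance the side calls did not use.

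Flat stretches had all fractions between 6.39 and 9.58 RPKM at the window and at 50 kb on either side. Elsewhere in the profile Mid S reached 9.75 RPKM at 40 kb on the earlier side. Early S fell to 5.92 RPKM at 80 kb on the later side. At 50 kb on the earlier side Early S stood at 8.38 ± 0.0696, Mid S at 9.58 ± 0.278 and Late S at 7.37 ± 0.146 RPKM (SD of library medians, n = 2). At 50 kb on the later side they stood at 6.39 ± 0.259, 9.35 ± 0.0967 and 8.53 ± 0.00813 RPKM. Mid S was the highest fraction at these places. The definition of a level side limits how far Early S and Late S can differ there. Putting the earlier side first also sets that Early S minus Late S is lower on the later side.

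For windows with late DNA on both sides, the choice of windows and class fixes that Early S is higher relative to Late S at the window than beside it. Early S was 8.21 ± 0.0780 RPKM at the window but 4.45 ± 0.397 and 3.55 ± 0.0875 RPKM at 50 kb on the earlier and later side (SD of library medians, n = 2). Late S dipped less, with 9.26 ± 0.0750 RPKM at the window against 10.5 ± 0.585 and 11.5 ± 0.798 RPKM. Windows with a level and a late side had their Early S maximum beside them. At 20 kb towards the level side Early S was 9.26 ± 0.0992 RPKM, against 8.18 ± 0.400 at the window and 4.00 ± 0.346 RPKM at 50 kb on the late side. The 23 windows with early DNA on both sides had the reverse, likewise fixed by their choice, with Early S at 7.92 ± 0.217 RPKM at the window and 11.0 ± 0.365 and 10.1 ± 0.558 RPKM at 50 kb on either side.

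**Figure D3:**
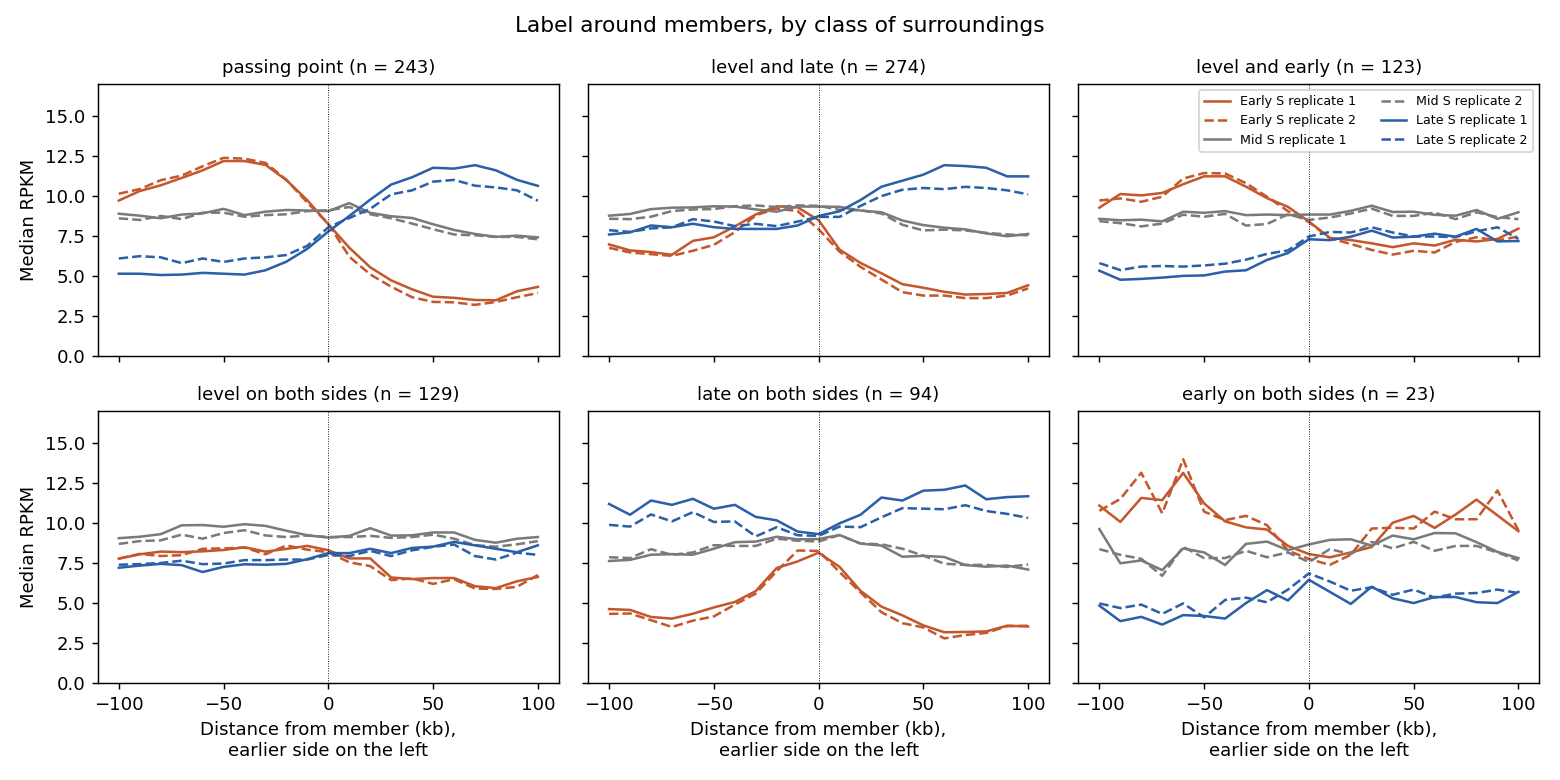
Median RPKM at 10 kb steps from 100 kb before to 100 kb after the window, with the earlier side on the left, for each class of surroundings and each library (solid replicate 1, dashed replicate 2). At passing points Early S falls from 12.3 to 3.52 RPKM between 50 kb on either side while Mid S stays between 8.05 and 9.41 RPKM; sides within 50 kb defined the classes.

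The order of the sides at passing points held when it was set in 1 replicate number and read in the other. Of 251 evenly labelled windows that were passing points in replicate 1, all 251 had the same order in replicate 2, with medians of 0.79 on the earlier and -1.13 on the later side, and 188 (74.9%) were again passing points. In the reverse direction all 222 kept the order, with 1.00 and -1.03, and 188 (84.7%) stayed in the class. Of 127 flat stretches in replicate 1, 108 (85.0%) kept the order of their sides and 90 (70.9%) were flat in replicate 2. Of 139 in replicate 2, 119 (85.6%) kept the order and 90 (64.7%) were flat in replicate 1. The sides of a passing point lie far apart by definition, which favours a kept order. These windows were also picked from both replicates combined. No such counts are given for covered windows, so these shares only describe the evenly labelled windows. When the windows themselves were also picked in 1 replicate number, passing points made up 24.9% and 26.4% and flat stretches 15.8% and 13.4% in the other. Among all grid windows with the same minimum sum in the picking replicate number, passing points made up 10.0% and 10.9%. Flat stretches made up 5.47% and 4.63% of them.

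The 5 passing points with the largest side differences lay on 3R, 3L and 2L. On 3R at 22100001 to 22110000 the libraries read 13.7 and 13.6 RPKM (Early S), 16.9 and 15.9 (Mid S) and 13.5 and 13.7 (Late S). Early S minus Late S was 2.21 on its left and -1.41 on its right, a difference of 3.62 on the log2 scale with a 95% interval from 3.21 to 4.03 (adjusted p 2.31e-11, limma). Early S and Late S overlapped at the window itself, where the difference was 0.0013 on the log2 scale.

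On 3L at 9310001 to 9320000 the sides were -2.09 and 1.4, and the window held 6.23 and 4.70 RPKM (Early S), 7.85 and 7.27 (Mid S) and 6.89 and 7.80 (Late S). Here both Early S libraries lay below both Late S libraries. On 2L 2 such crossings lay 150 kb apart and ran in opposite directions. At 1350001 to 1360000 the sides were -2.41 and 0.92, and at 1500001 to 1510000 they were 1.94 and -1.53. The last of the 5 was 3R at 23720001 to 23730000, with -2.26 and 1.16. Their adjusted p-values in limma were all at most 2.37e-11, and rules that take the largest differences favour such values.

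The flattest surroundings were found on X, 2L and 3R. On X at 20340001 to 20350000 the libraries read 7.49 and 7.18 RPKM (Early S), 8.24 and 6.36 (Mid S) and 8.83 and 7.87 (Late S). Its sides were -0.11 and 0.11, and the difference of -0.21 had a 95% interval from -0.48 to 0.051 (adjusted p 0.125, limma). Farther out than the sides reach, from 100 kb on, Late S exceeded Early S in both directions in all libraries. On 2L at 4900001 to 4910000 the sides were -0.12 and -0.14, a difference of 0.012 with an interval from -0.33 to 0.36 (adjusted p 0.947, limma). X at 21050001 to 21060000 (0.044 and 0.14) and 3R at 1560001 to 1570000 (-0.11 and -0.14) were likewise not called, with adjusted p of 0.556 and 0.811 in limma. On 2L at 3450001 to 3460000 the sides of -0.16 and 0.13 differed by -0.29, which was just called (adjusted p 0.0499, limma).

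**Figure D4:**
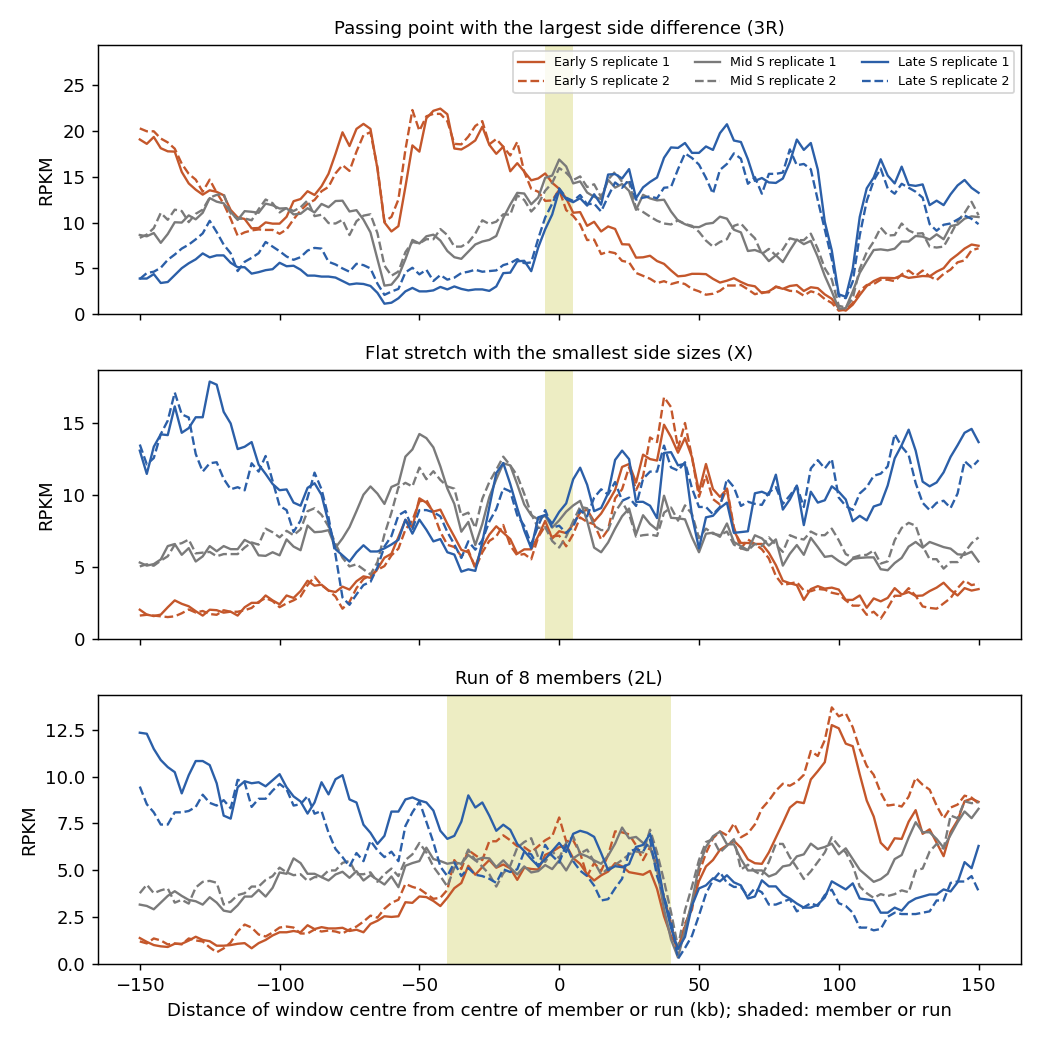
RPKM of overlapping 10 kb windows against distance in kb for 3 examples, with each library as a line (solid replicate 1, dashed replicate 2) and the evenly labelled window or run shaded. In the top example on 3R Early S and Late S cross once, in the middle one on X the 3 fractions rise and fall together near the window, and in the lower one on 2L they stay between 4.94 and 6.41 RPKM on average over 80 kb, with a drop of all libraries just right of the run.

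Evenly labelled windows often adjoined each other. They formed 475 unbroken runs on the grid, of which 253 were single windows, 113 were pairs and 109 held 3 to 8 windows. The longer runs contained 416 windows, 46.5% of the total. On overlapping windows, which start every 2.5 kb and share reads, the stretch meeting the rule around a window had a median length of 25 kb and a maximum of 85 kb. The median was 20 kb at passing points and 30 kb in flat stretches. It was also 30 kb with late DNA on both sides and with a level and a late side. With early DNA on both sides it was 17.5 kb, and with a level and an early side 22.5 kb. Such stretches reach into the sides that define the classes, which fixes part of these lengths. There were 551 separate stretches, and each window in a shared stretch was counted.

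Runs taken as separate places were classed by the sides outside their first and last window. The grid window next to each end of a run is by definition not evenly labelled, which works against level sides. There is no such count for covered windows, so the shares only describe the runs. Of 467 runs with both outer sides measured, 177 (37.9%) were passing points and 44 (9.42%) were flat. Passing points made up 38.9% of single windows, 45.5% of pairs and 27.8% of runs of 3 to 8 windows. In the longest group, 30 of 108 runs were passing points and 30 lay within late DNA, against 22 of 247 single windows in late DNA. A long evenly labelled run was thus not the same as level surroundings, as 8 of those 108 runs were flat. These differences between run lengths were not tested.

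The 4 longest runs covered 80 kb each and included 3 kinds of surroundings. On 2L at 5750001 to 5830000 the run had 4.94 and 6.03 RPKM (Early S), 5.47 and 5.65 (Mid S) and 6.41 and 5.03 (Late S). Its sides were -1.53 and 0.90, so that it formed a plateau between a late and an early side. On 3L at 2760001 to 2840000 the values were 11.1 and 10.9 RPKM (Early S), 10.9 and 10.3 (Mid S) and 10.2 and 10.4 (Late S), with late sides of -1.15 and -1.38.

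On 3R at 24620001 to 24700000 the run held 9.85 and 9.59 RPKM (Early S), 9.98 and 9.95 (Mid S) and 10.9 and 10.0 (Late S), again between late sides (-1.37 and -1.54). On 3R at 5680001 to 5760000 it held 9.06 and 8.78, 10.3 and 10.1, and 8.76 and 8.95 RPKM in the same order, between level sides of 0.39 and -0.43. The next run, of 70 kb on 3R at 10360001 to 10430000, also had level sides (-0.42 and 0.36). In the 2L run replicate 1 was higher in Late S and replicate 2 in Early S, so no order could be given there.

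Strongly early or strongly late DNA was usually near. A window with an Early S minus Late S difference of at least 1 or at most -1 was met within 100 kb on at least 1 side of all but 40 of the 895 evenly labelled windows (4.47%, against 1.18% of covered windows). In 329 (36.8%, against 20.0% of covered windows) the nearest such windows were early on 1 side and late on the other, and they lay a median of 80 kb apart. In 366 (40.9%, against 42.4%) only late ones were met first, and in 160 (17.9%, against 36.4%) only early ones.

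The closest comparison was with 782 other covered windows in which Early S and Late S were also within 1.4-fold of each other. In 756 of these Mid S was the highest fraction, and the 782 windows had Mid S at 10.2 ± 0.279 RPKM, Early S at 7.43 ± 0.277 and Late S at 7.53 ± 0.287 (mean and SD over libraries of the median, n = 2). Passing points made up 32.5% and flat stretches 15.2% of these, close to the shares in evenly labelled windows. The remaining classes were distributed differently. A level and a late side were found in 13.9% (30.9% of evenly labelled windows) and late DNA on both sides in 1.80% (10.6%). A level and an early side were found in 30.2% (13.9%) and early DNA on both sides in 6.43% (2.60%). With libraries centred on their medians, a level and a late side made up 9.38% (23.5%) and a level and an early side 33.4% (19.6%). After quantile normalization these were 12.3% (27.5%) and 33.7% (19.2%). The median side was -0.26 on the log2 scale around evenly labelled windows and 0.19 around the others. With libraries centred on their medians, the shares with both sides below 0 were 23.4% of evenly labelled windows and 7.46% of the others. After quantile normalization they were 26.0% and 10.0%. This difference has no test of its own, since both sets were picked from the same values.

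**Figure D5:**
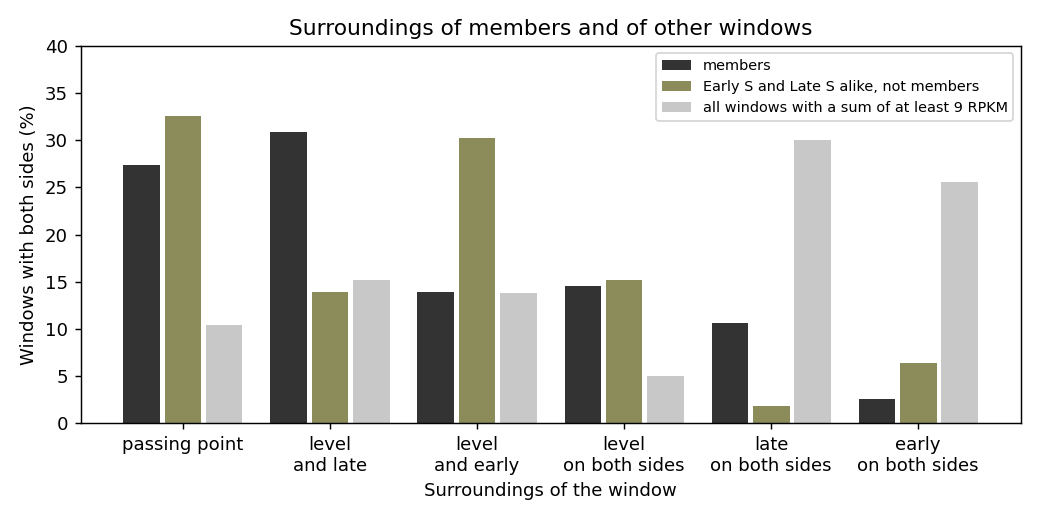
Share of windows, in percent, in each class of surroundings for the 886 evenly labelled windows (dark), 778 other windows with Early S and Late S alike (olive) and 9251 covered windows (pale). Passing points make up 27.4%, 32.5% and 10.4%, and windows with a level and a late side 30.9%, 13.9% and 15.1%.

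The arms differed in how often the surroundings were flat. Flat stretches made up 22.9% of evenly labelled windows on 3R and 16.7% on 2L, against 7.66% on 3L and 7.22% on X. In covered windows these shares were 6.96%, 4.59%, 3.97% and 3.91%, so the order of the arms was the same. Passing points made up 33.3% on X, 28.8% on 3L, 26.0% on 2L and 23.6% on 3R, where covered windows had 12.6%, 9.42%, 9.18% and 10.7%. Differences between arms were not tested.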

How the data were processed

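Per the file headers, the authors deposited RPKM values for 10 kb windows starting every 2.5 kb, in 1 file per library and 1 combined file per fraction; the combined files equalled read-weighted means of the 2 libraries to within 9.95e-14 RPKM. For the aligner, the genome build and any input correction, nothing is given in the sources used here. Sequence names are of the Release 5 type, coordinates are counted from 1 as in the files, and the gene table at hand is of another release, so no genes or sequences are given. All values in full windows were whole multiples of 1 read within 0.02 reads, which gave the depth; counting intervals cover counting error only.

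The evenly labelled windows, lists and rules were chosen with earlier results of these data known. Values were put on the log2(RPKM + 0.0341) scale, which understates changes of low windows; 0.0341 RPKM is the lowest value above 0. A model with 1 mean for each of the 3 fractions was fitted over the 6 libraries in R 4.3.3 with limma 3.58.1, with two-sided tests at an adjusted p of 0.05. Sides used windows with a sum of at least 3 RPKM and needed 3 of 5. Named regions are the 5 longest runs, the 5 passing points with the largest side difference, the 5 flat stretches with the smallest sides, and the 3 windows nearest each side of the 1.4 limit. The fits were tested on simulated data. Tables and figures were made in Python 3.11.15 with pandas 2.3.3, NumPy 2.4.6 and matplotlib 3.10.9.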

Additional observations from a re-analysis of the deposited data

How the results depend on the processing

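The share of evenly labelled windows whose sides differ, the share called in no contrast, and the shares of passing points and flat stretches were recomputed under other settings. With sides called early or late from 1, passing points made up 7.11% (2.75% of covered windows) and flat stretches 55.3% (19.5%). From 0.3 they made up 41.1% (15.6%) and 5.53% (1.82%). Flat stretches made up 23.0% after quantile normalization, 21.9% with sides of 10 to 30 kb and 9.65% with sides of 10 to 100 kb. Passing points made up 21.6%, 21.6% and 24.3% at these settings. In covered windows flat stretches made up 7.64%, 5.38% and 5.71%, and passing points 8.58%, 5.93% and 16.6%. Leaving out 1 library at a time, passing points ranged from 24.6% to 29.6% (9.84% to 11.2% of covered windows). Flat stretches ranged from 13.2% to 17.3% (4.41% to 5.83%). The classes do not use Mid S. A limit of 1.3 on the highest over the lowest gave 557 windows and 1.5 gave 1245. Passing points stood at 26.0% and 27.0%, against 10.4% of covered windows. Windows called in no contrast stood at 94.6% and 51.4%, against 7.40%. A grid shifted by 5 kb gave 890 windows, with 27.8% passing points (10.4% of covered windows) and 14.9% flat stretches (5.14%).

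Same-numbered libraries shared a small part of their deviations from the fraction means. These correlated at 0.060 for Early S and Mid S, 0.12 for Early S and Late S and 0.22 for Mid S and Late S. The main model left the replicate number out. With the replicate block, 64.9% of the windows were called in no contrast (6.65% of covered windows) and 85.7% had sides that differ (82.0%). Over all tested windows the median of Early S minus Late S was -0.23 on the log2 scale, -0.084 with libraries centred on their medians and -0.033 after quantile normalization, so level sides are to be read against it. Reading windows and sides in different replicate numbers was chosen after seeing the data.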
